A study of Mus musculus with 10 samples.

Results

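The genes described here are 9 ligands and receptors of the tumor necrosis factor (TNF) superfamily that are expressed in a mouse macrophage line, followed through stimulation with bacterial lipopolysaccharide (LPS) and through treatment with a cyanobacterial fatty acid. They were chosen by name, as the rows of the count table whose Ensembl identifiers carry the symbols Tnf, Tnfsf9, Tnfsf10, Tnfsf13b, Tnfrsf1a, Tnfrsf1b, Tnfrsf11a, Tnfrsf10b and Fas, and are 9 of 43432 genes in the table. The names were picked with earlier results of these data known. All 9 had enough counts to be tested, as did 14172 genes in all.

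TNF superfamily ligands are mostly made as trimers on the cell surface, from which proteases can release them, and each binds receptors of the matching family on the same or a neighbouring cell. Receptors with an intracellular death domain can start cell death through caspases. Many receptors of the family, with or without that domain, recruit TRAF adaptors and ubiquitin enzymes that switch on NF-κB and MAP kinases. In macrophages LPS is a classical inducer of TNF, and the TNF receptors in turn feed back on the same NF-κB program.

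RNA was measured in RAW264.7 cells, an established mouse macrophage-like tumor line, in 10 poly(A) RNA sequencing libraries from 5 conditions with 2 libraries each. The conditions were DMSO vehicle (0.5%) without LPS, DMSO with LPS (1 µg/mL), and compound **1**, a monounsaturated keto fatty acid from a marine cyanobacterial mat with an electrophilic enone group, at 3.2, 10 or 32 µM with LPS. Cells were pretreated with compound or vehicle for 1 h, LPS was added, and RNA was taken 12 h later. No library received **1** without LPS, so every value for **1** is a value in LPS-stimulated cells, and all dose comparisons share the same 2 DMSO + LPS libraries. The labels call the 2 libraries of a condition biological replicates of this single line without saying how the cultures were separated, so p-values measure the spread between these libraries.

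Library totals lay between 45966803 and 58976377 counts. Of 10 macrophage markers, 9 had at least 188 counts in every library (Adgre1, Cd68, Csf1r, Itgam, Lyz2, Spi1, Cd14, Fcgr3 and Tyrobp) and Marco had 0 to 2. Of 7 T cell genes, Cd3e and Cd8a were at 0 in every library and Cd3d, Cd3g, Cd4 and Trac at 0 to 4 counts, whereas Lck, a lymphocyte kinase gene, had 261 to 600. The 4 epithelial markers (Epcam, Krt8, Krt18 and Cdh1) summed to 1777 counts in the first 10 µM library and 268 in the first 3.2 µM library, against 0 to 5 in the other 8, and the 5 fibroblast markers summed to 227 in the first 10 µM library against 12 to 55 elsewhere, as did 5 neutrophil markers to 110 against 1 to 18. In the second 32 µM library the most abundant feature was Gm42418 at 2.46% of counts, whereas it was Eef1a1 in the other 9. What these features contribute to the member genes was not tested directly, and fits without single libraries are given below.

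Levels are given as CPM, the count per 1000000 counts of the library, with library sizes corrected by the trimmed mean of M-values, and as RPKM, which is CPM per 1000 bases of annotated exon, where genes are compared with each other. Changes are log2 fold changes ± SE from edgeR's quasi-likelihood test on all 10 libraries, with Benjamini-Hochberg adjusted p-values over all 14172 genes. A gene was called changed at an adjusted p below 0.05 together with at least a 1.5-fold difference, and rose or fell is used of called genes alone. In bulk RNA, fewer cells expressing a gene and less RNA per cell cannot be told apart.

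LPS raised 5 of the 9 genes. The ligands Tnf and Tnfsf10 (TRAIL) and the receptors Tnfrsf1b (TNFR2), Fas and Tnfrsf10b (the TRAIL receptor) were called higher in DMSO + LPS than in DMSO, by 50.3-, 11.6-, 33.6-, 14.8- and 1.81-fold. No member was called lower. Across all genes tested, 14.6% were called higher and 13.6% lower. By adjusted p alone all 9 members passed, where 50.9% of all genes did, and the other 4 members moved by less than 1.5-fold. Of these, Tnfsf13b and Tnfrsf11a did not pass by adjusted p in every alternative fit. The median log2 fold change of the 9 genes was 0.86, against 0.003 over all genes.

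On the length-corrected scale, the order of levels changed with LPS. In DMSO the highest member was Tnfrsf1a (TNFR1), at a mean of 58.4 RPKM, followed by Tnfrsf11a at 19.7, Tnf at 17.1, Tnfrsf1b at 16.2 and Tnfsf9 at 12.4 RPKM. Tnf and Tnfrsf1b overlapped between libraries there, as did Tnfrsf10b (1.26 RPKM) and Fas (1.14 RPKM). In DMSO + LPS Tnf led at 860 RPKM and Tnfrsf1b came next at 544 RPKM, both far above Tnfrsf1a at 76.8 RPKM. Tnfsf9 (18.5 RPKM) and Tnfrsf11a (17.7 RPKM) overlapped between libraries, with Fas just below at 16.8 RPKM, followed by Tnfrsf10b at 2.28 RPKM. Tnfsf13b (0.604 RPKM) and Tnfsf10 (0.328 RPKM) were the lowest members under LPS. At 32 µM of **1** with LPS the members stood in the same order, with means of 763 RPKM for Tnf, 399 for Tnfrsf1b and 78.7 for Tnfrsf1a.

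**Figure D1:**
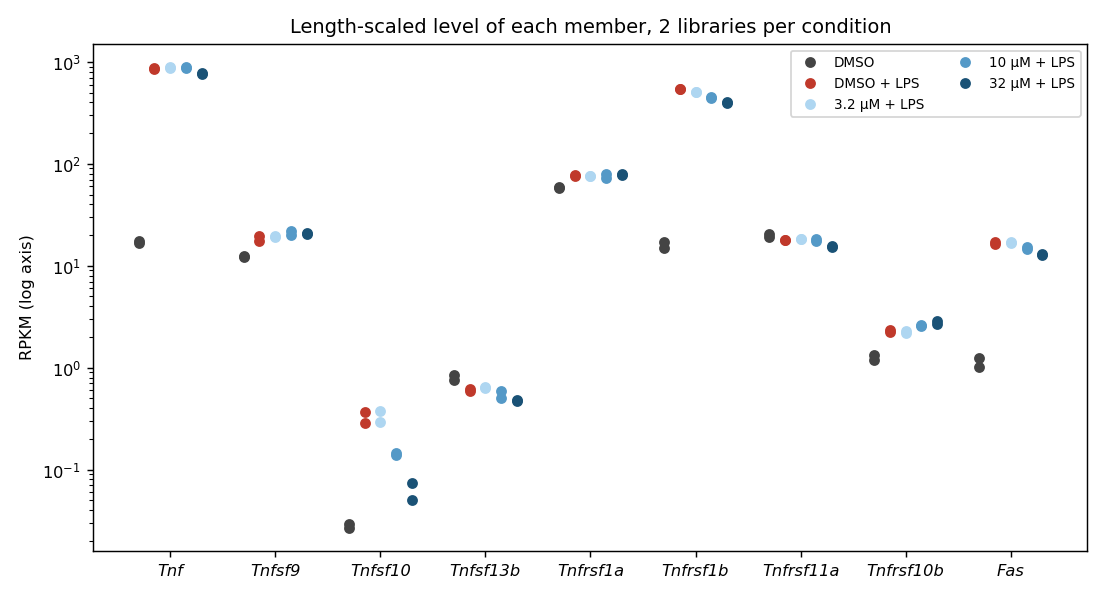
Level of each of the 9 genes in RPKM (log axis), with 1 point per library and 2 libraries per condition. Tnf and Tnfrsf1b lay near 17.1 and 16.2 RPKM in DMSO and reached 860 and 544 RPKM in DMSO + LPS, whereas the condition means of Tnfrsf1a ran from 58.4 to 78.7 RPKM and those of Tnfrsf11a from 15.5 to 19.7 RPKM.

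The 4 members that LPS raised most can be compared in the 250 bases before their start sites, which are shown because these genes rose together under LPS, while Tnfsf10 alone was called at 32 µM of **1**. Promoter windows were found for 7 of the 9 members in RefSeq (GRCm38.p6); Tnfsf9 and Tnfrsf10b were not among them. Each is written 5′ to 3′ on the gene's strand and ends at the base before the start site, with capitals for matches on either strand to any of the motifs searched. These were the interferon regulatory factor (IRF) core AANNGAAA, the longer interferon-stimulated response element GAAANNGAAA that overlaps it, the AP-1 motif TGANTCA, the antioxidant response element core TGACNNNGC and the NF-κB motif.
Tnf (chr17:35202008-35202257, minus strand): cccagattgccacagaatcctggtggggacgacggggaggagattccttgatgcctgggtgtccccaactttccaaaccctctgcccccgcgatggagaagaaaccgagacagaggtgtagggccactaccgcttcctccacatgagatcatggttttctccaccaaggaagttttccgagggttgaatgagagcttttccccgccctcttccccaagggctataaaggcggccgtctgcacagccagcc
Tnfsf10 (chr3:27316827-27317076, plus strand): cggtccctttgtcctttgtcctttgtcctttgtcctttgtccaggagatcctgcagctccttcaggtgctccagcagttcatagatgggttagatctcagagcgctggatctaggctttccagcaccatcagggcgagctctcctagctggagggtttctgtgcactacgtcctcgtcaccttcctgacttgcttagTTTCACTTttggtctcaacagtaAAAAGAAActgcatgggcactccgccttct
Tnfrsf1b (chr4:145246871-145247120, minus strand): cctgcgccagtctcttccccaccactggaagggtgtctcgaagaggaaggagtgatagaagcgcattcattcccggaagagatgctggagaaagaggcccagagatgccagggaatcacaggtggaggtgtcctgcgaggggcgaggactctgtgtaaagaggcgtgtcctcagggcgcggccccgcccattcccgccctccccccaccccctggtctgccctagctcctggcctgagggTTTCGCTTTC
Fas (chr19:34290409-34290658, plus strand): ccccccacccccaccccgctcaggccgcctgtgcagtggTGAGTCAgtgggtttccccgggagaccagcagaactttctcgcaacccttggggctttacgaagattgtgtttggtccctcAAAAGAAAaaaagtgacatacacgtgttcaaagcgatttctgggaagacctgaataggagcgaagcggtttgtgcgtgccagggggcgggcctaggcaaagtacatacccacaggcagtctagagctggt
Over the whole table window of 250 bases before to 50 after the start, Tnfsf10 held the IRF core at -53 to -46 and at -30 to -23, counted from the start site. Tnfrsf1b held it at -10 to -3, within the response element at -10 to -1, so that its capitals mark the longer match. Fas held the IRF core at -130 to -123 and again past the start site, and the AP-1 motif at -211 to -205. Tnf held no match to these motifs in this window, nor did Tnfrsf1a and Tnfrsf11a. Sites outside the window, or with letters other than the fixed patterns searched, were not looked for. Matches were not particular to genes that LPS raised: Tnfsf13b, which LPS did not raise, has 2 windows, which overlap. In 1 of them lay the IRF core at -160 to -153, -20 to -13 and -14 to -7, the response element at -16 to -7, the AP-1 motif at -127 to -121 and the antioxidant core at -88 to -80. The other held the IRF core and the AP-1 motif past its start site, at the same bases as the matches at -160 to -153 and -127 to -121. Of 32851 RefSeq promoter windows of the same length, 23.9% held the IRF core, 3.44% the response element, 7.81% the AP-1 motif, 12.4% the antioxidant core and 4.51% the NF-κB motif. The matches are descriptions of letters and were not tested against binding.

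Tnf, the founding cytokine of the family, had 27.6 and 28.4 CPM in the DMSO libraries and 1396 and 1422 CPM in DMSO + LPS. It had 1461 and 1441 CPM at 3.2 µM, 1440 and 1449 CPM at 10 µM, and 1240 and 1263 CPM at 32 µM. Every LPS library was thus far above both DMSO libraries, and the 32 µM libraries lay below all other LPS libraries. The log2 fold change was 5.65 ± 0.044 for LPS (adjusted p = 1.21e-10) and -0.17 ± 0.0359 for 32 µM against DMSO + LPS (adjusted p = 0.0212), a 1.13-fold difference that was not called. At 32 µM against 10 µM it was -0.21 ± 0.0359 (adjusted p = 0.0227), again short of 1.5-fold. At 32 µM, Tnf was 44.7-fold above DMSO. The log2 fold change of the 32 µM comparison lay between -0.19 and -0.16 over 13 alternative fits, while its adjusted p ranged from 3.27e-04 to 0.336.

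Tnf mRNA is known for an AU-rich element after its coding part, to which the protein of Zfp36 (tristetraprolin) binds to speed decay, and this stretch is shown because Zfp36 and its relatives are measured below. The densest 30 bases lie in exon 4 of 4, after the stop codon, at chr17:35199681-35199710 on the minus strand (GRCm38), with the matched nonamers in capitals.
Tnf AU-rich stretch: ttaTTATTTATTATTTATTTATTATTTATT
The Tnf transcript held 5 matches to the nonamer TTATTTATT, overlaps counted, 4 of them in these bases. Tnfsf13b and Tnfrsf10b each held 1 match and the other 6 members held 0, in the longest transcript annotated as protein-coding for each gene (GENCODE M21; for Fas 1481 bases, where a transcript of another class has 1625 and was not searched). Of 21877 protein-coding genes, 7.99% held at least 1 match and 0.187% held at least 5.

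Tnfsf10, which encodes the death ligand TRAIL, was the only member that **1** changed by the call rule. It was also the least abundant: the DMSO libraries held 9 and 8 counts, the DMSO + LPS libraries 111 and 71, those at 3.2 µM 72 and 100, those at 10 µM 34 and 35, and those at 32 µM 19 and 12. In CPM these were 0.153 and 0.141, then 1.94 and 1.51, then 1.55 and 2, then 0.731 and 0.774, and lastly 0.388 and 0.265. The 10 µM libraries lay below all 4 libraries of DMSO + LPS and 3.2 µM, the 32 µM libraries lay below those of 10 µM, and both remained above DMSO. Tnfsf10 rose 11.6-fold with LPS (log2 3.53 ± 0.302, adjusted p = 2.89e-05) and fell 5.24-fold at 32 µM against DMSO + LPS (log2 -2.39 ± 0.281, adjusted p = 0.0012). The log2 fold change at 32 µM lay between -2.69 and -2.15 over 12 alternative fits, with adjusted p of at most 0.0137.

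At 10 µM Tnfsf10 was 2.29-fold below DMSO + LPS (log2 -1.20 ± 0.261, adjusted p = 0.0654) and was not called, although it passed in the edgeR likelihood ratio test (adjusted p = 0.0178). The range over the alternatives was 0.0106 to 0.444. At 3.2 µM the difference was 0.04 ± 0.25 on the log2 scale, with overlapping libraries. The difference of 32 µM from 10 µM was -1.19 ± 0.286 (adjusted p = 0.0945) and was not called. At 32 µM it was still 2.21-fold above DMSO (log2 1.14 ± 0.323, adjusted p = 0.0188), but this call was lost in 5 of 12 alternatives, among them the fits without either DMSO library (adjusted p = 0.0588 and 0.0882) and without the first 32 µM library (adjusted p = 0.221). Counts this low carry a large counting error, which is part of the SE.

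Tnfsf9, the ligand of the costimulatory receptor 4-1BB, had 15.9 and 16.2 CPM in DMSO and 22.5 and 25.3 CPM in DMSO + LPS. With **1** it had 25.3 and 24.6 CPM at 3.2 µM, 28.2 and 25.8 CPM at 10 µM, and 27 and 26.4 CPM at 32 µM. All LPS libraries lay above both DMSO libraries, and the 10 and 32 µM libraries lay above the DMSO + LPS pair. The LPS difference of 0.57 ± 0.0725 on the log2 scale (adjusted p = 2.78e-04) was 1.49-fold, just under the fold cutoff, and it was called without the first DMSO + LPS library (log2 0.66) and in a fit of the 4 libraries compared (log2 0.59). At 32 µM against DMSO + LPS it was 0.16 ± 0.0719 (adjusted p = 0.255), which was not called, whereas 32 µM against DMSO was called at 1.66-fold (adjusted p = 7.27e-05).

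Tnfsf13b (BAFF), a survival factor for B cells, was highest without LPS. It had 5.25 and 5.83 CPM in DMSO, 4.02 and 4.28 CPM in DMSO + LPS, 4.47 and 4.35 CPM at 3.2 µM, 4.04 and 3.45 CPM at 10 µM, and 3.23 and 3.34 CPM at 32 µM. Both DMSO libraries were above all LPS libraries, and both 32 µM libraries were below all others. Neither step was called on its own: LPS gave -0.42 ± 0.116 (adjusted p = 0.0168) and 32 µM against DMSO + LPS gave -0.34 ± 0.118 (adjusted p = 0.137) on the log2 scale. The comparison of 32 µM with DMSO, which spans both, was called, with a fall by 0.75 on the log2 scale (1.69-fold, adjusted p = 9.42e-04).

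**Figure D2:**
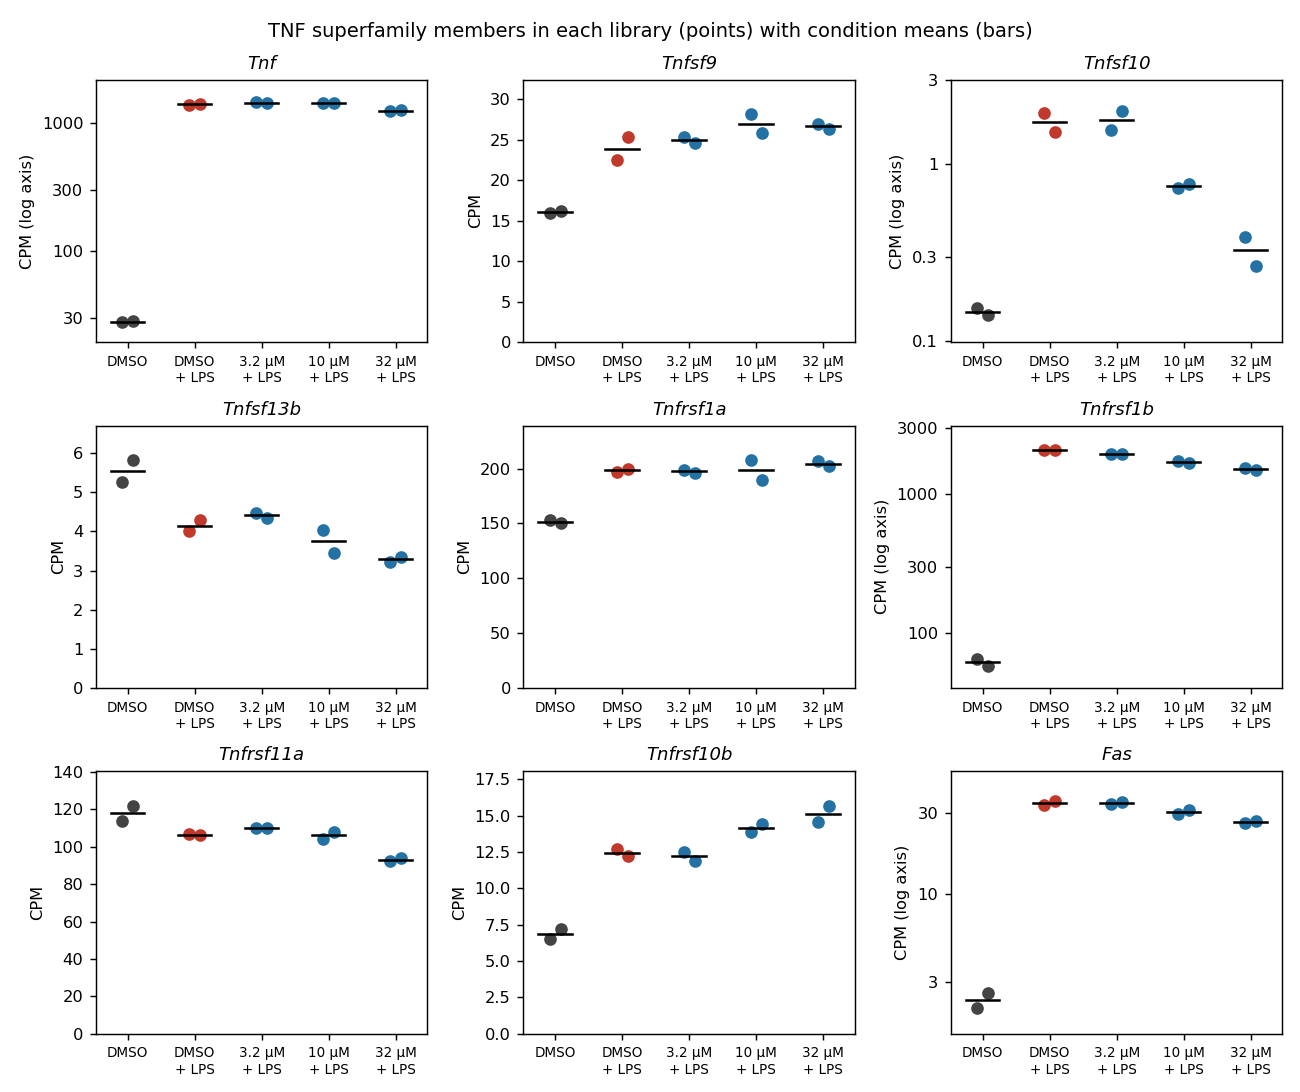
CPM of each gene in each library (points) with the condition mean (bar), on log axes for Tnf, Tnfsf10, Tnfrsf1b and Fas and on linear axes from 0 for the others. The mean of Tnfsf10 was 1.73 CPM in DMSO + LPS, 0.753 CPM at 10 µM and 0.327 CPM at 32 µM, whereas the mean of Tnf stayed at 1251 CPM or more in all LPS conditions.

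Among the receptors, Tnfrsf1a, the death-domain receptor TNFR1 through which soluble TNF mainly signals, varied little between the LPS conditions. It had 153 and 150 CPM in DMSO, 197 and 200 CPM in DMSO + LPS, 199 and 196 CPM at 3.2 µM, 208 and 190 CPM at 10 µM, and 207 and 202 CPM at 32 µM. LPS libraries lay above DMSO libraries without overlap (log2 0.39 ± 0.051, adjusted p = 3.26e-04, 1.31-fold, not called). At no dose did it differ from DMSO + LPS by more than 0.04 on the log2 scale, with SE of 0.0509. The higher of the 10 µM values belongs to the library with epithelial marker counts, and without that library the difference at 10 µM was -0.07.

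Tnfrsf1b, the receptor TNFR2 that lacks a death domain and recruits TRAF1 and TRAF2, was, after Tnf, the member with the largest rise under LPS. It had 65.7 and 57.7 CPM in DMSO and 2079 and 2072 CPM in DMSO + LPS, a rise of 33.6-fold (log2 5.07 ± 0.0709, adjusted p = 2.22e-09). With **1** it had 1948 and 1953 CPM at 3.2 µM, 1746 and 1679 CPM at 10 µM, and 1549 and 1499 CPM at 32 µM. The libraries of each higher dose lay below those of the dose before it. Against DMSO + LPS the log2 fold changes were -0.09 ± 0.0595 at 3.2 µM, -0.28 ± 0.0595 at 10 µM (adjusted p = 0.0603) and -0.45 ± 0.0596 at 32 µM (adjusted p = 0.00239). The last was a 1.36-fold difference, below the fold cutoff, and its adjusted p stayed at or below 0.0256 over 13 alternatives. At 32 µM the gene was still 24.7-fold above DMSO.

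Fas, the death receptor for Fas ligand, had 2.11 and 2.57 CPM in DMSO and 33.8 and 35.5 CPM in DMSO + LPS. It had 34.2 and 35.2 CPM at 3.2 µM, 29.9 and 31.6 CPM at 10 µM, and 26.3 and 26.9 CPM at 32 µM. The 3.2 µM libraries overlapped DMSO + LPS, the 10 µM libraries lay below both, and the 32 µM libraries lay lower again. LPS gave log2 3.89 ± 0.0935 (adjusted p = 2.34e-08) and 32 µM gave -0.38 ± 0.0787 against DMSO + LPS (adjusted p = 0.0199), which at 1.3-fold was not called. The gene of its own ligand, Fasl, had at most 3 counts in any library.

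Tnfrsf10b, the mouse death receptor for TRAIL, lay on the other side of DMSO + LPS from its ligand at 10 and 32 µM of **1**, without reaching a call. It had 6.53 and 7.19 CPM in DMSO, 12.7 and 12.2 CPM in DMSO + LPS, 12.5 and 11.9 CPM at 3.2 µM, 13.9 and 14.4 CPM at 10 µM, and 14.6 and 15.7 CPM at 32 µM. The 10 and 32 µM libraries lay above both DMSO + LPS libraries, where those of Tnfsf10 lay below. LPS gave log2 0.86 ± 0.078 (adjusted p = 4.05e-05), which was called. At 32 µM the difference of 0.29 ± 0.0763 (adjusted p = 0.0578) was 1.22-fold and was not called, while 32 µM against DMSO was called at 2.21-fold (adjusted p = 8.41e-06).

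Tnfrsf11a (RANK), the receptor through which RANK ligand drives macrophage-lineage cells into osteoclasts, had 114 and 122 CPM in DMSO and 107 and 106 CPM in DMSO + LPS. It had 110 and 110 CPM at 3.2 µM, 104 and 108 CPM at 10 µM, and 92.1 and 94 CPM at 32 µM. The 32 µM libraries were the lowest and the DMSO libraries the highest. No comparison was called: LPS gave -0.15 ± 0.0467 (adjusted p = 0.0267) and 32 µM against DMSO + LPS gave -0.19 ± 0.0468 (adjusted p = 0.0421) on the log2 scale, and the latter ranged up to an adjusted p of 0.233 over the alternatives. The gene of its ligand, Tnfsf11, had 0 counts in all 10 libraries. In the smallest library this allows up to 0.0664 CPM (a floor of 3 counts, for counting error alone).

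In count, then, 32 µM of **1** left 8 of 9 members uncalled. Tnfsf10 was the 1 member called lower and 0 were called higher, where 2.91% of all genes were called lower and 1.27% higher. By adjusted p alone 5 members were lower (Tnf, Tnfsf10, Tnfrsf1b, Tnfrsf11a and Fas), where 5.72% of all genes were, and 4 of those 5 differed by 1.36-fold or less. Tnfsf10 and Tnfrsf1b stayed below an adjusted p of 0.05 in every alternative fit that tested them, whereas Tnf, Tnfrsf11a and Fas did not. The median over the 9 genes was -0.19 on the log2 scale, against 0.008 over all genes. At 10 µM the quasi-likelihood test and DESeq2 called 0 members and the likelihood ratio test 1, where 0.861% of all genes were called by the quasi-likelihood test. At an unadjusted p below 0.05 stood 4 members and 12.1% of all genes. At 3.2 µM 0 members were called by any of these tests, 0 had an unadjusted p below 0.05, and the log2 fold changes ran from -0.09 to 0.09. In that comparison 0% of all genes were called, 600 genes (4.23%) had an unadjusted p below 0.05, and DESeq2 called 8.

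Between 32 and 10 µM edgeR's quasi-likelihood test, its likelihood ratio test and DESeq2 each called 0 members, where 1.32% of all genes were called by the first. At an unadjusted p below 0.05 stood 5 members and 12.5% of all genes. Against DMSO, 32 µM with LPS had 6 members called higher (Tnf, Tnfsf9, Tnfsf10, Tnfrsf1b, Tnfrsf10b and Fas) and 1 called lower (Tnfsf13b), where 13.9% and 13.3% of all genes were called higher and lower. For comparison within the same libraries, the inflammatory genes Il1b and Nos2 fell at 32 µM by 1.69 and 2.19 on the log2 scale against DMSO + LPS, and Nqo1, a target of the antioxidant factor Nrf2, rose by 2.63.

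**Figure D3:**
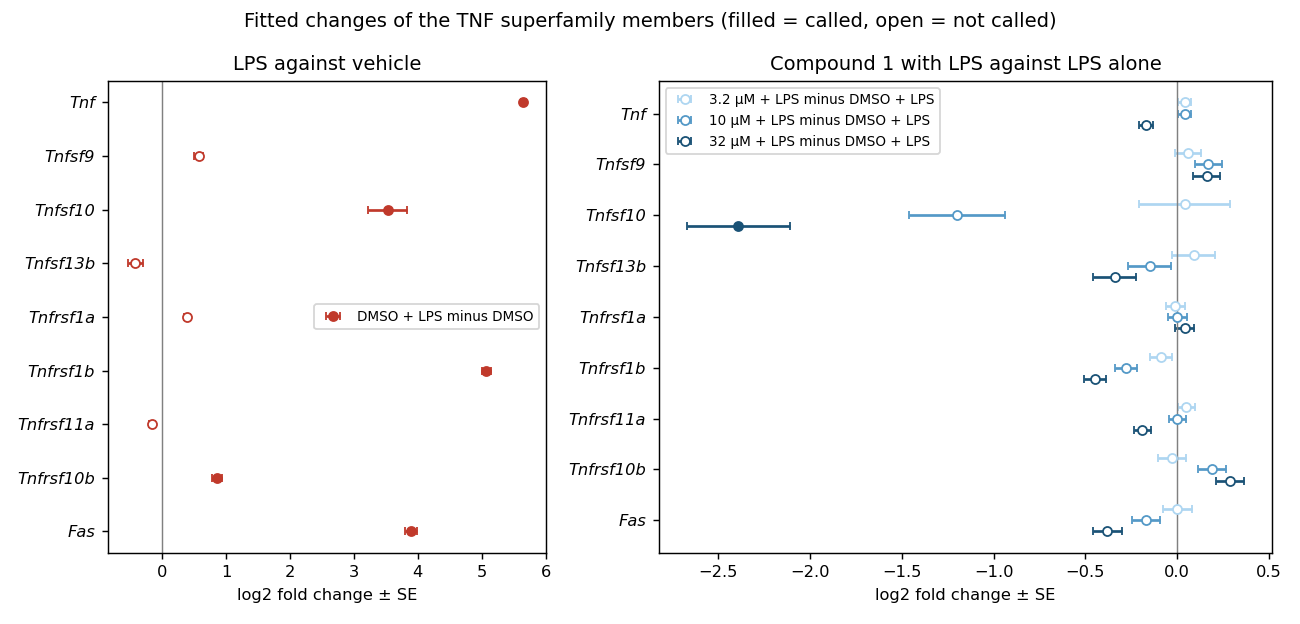
Fitted log2 fold change ± SE of each gene, for LPS against vehicle (left) and for each dose of **1** with LPS against DMSO + LPS (right), with filled points for called genes. At 32 µM Tnfsf10 is the only filled point, at -2.39, and the other 8 genes lie between -0.45 and 0.29.

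The rest of the family was followed as 37 further ligands and receptors, of which 21 had enough counts to be tested. LPS raised 8 of the 21 and lowered 3, where 14.6% of all genes were called higher and 13.6% lower, with a median log2 fold change of 0.38 against 0.003 over all genes. The costimulatory receptor Cd40 rose from a mean of 0.934 to 146 CPM (log2 7.28 ± 0.137). Tnfrsf8 (CD30) rose from 0.39 to 17 CPM (log2 5.44 ± 0.0912), and Tnfrsf9, the 4-1BB receptor for Tnfsf9, rose from 0.259 to 4.64 CPM (log2 4.14 ± 0.257). Tnfrsf23, a mouse decoy receptor for TRAIL, rose from 67.4 to 216 CPM (log2 1.68 ± 0.0451), and its close relatives Tnfrsf22 and Tnfrsf26 were called too. How reads shared by these related genes were counted is not given in the sources used here, so their separate values are uncertain. Ltb and Tnfsf15 were the ligands called higher, whereas Relt fell by 0.60 and the weakly expressed Cd27 and Tnfrsf4 were the other genes called lower. Tnfsf15 too was weakly expressed, at 0 to 16 counts, with means of 0.017 CPM in DMSO and 0.278 CPM in DMSO + LPS. It passed the count filter only through LPS libraries, where it was high, so its call carries little weight. Its log2 fold change was 6.79 without the first DMSO library and 2.93 without the second. The calls of Relt and Tnfrsf22 lay at the fold cutoff and were lost without the second DMSO library (log2 -0.56 and 0.56) or the first DMSO + LPS library (-0.51 and 0.54). That of Cd27 was lost without any 1 of the 4 libraries compared (adjusted p of 0.0536 to 0.0881), and that of Tnfrsf4 without either DMSO library (adjusted p = 0.2 and 0.0885) or the second DMSO + LPS library (0.258). The 11 calls thus became 7 without the second DMSO library and 8 without the first DMSO + LPS library, and no gene called lower kept its call in every such fit.

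At 32 µM against DMSO + LPS, 4 of these 21 genes fell and 0 rose, where 2.91% of all genes were called lower and 1.27% higher, with a median of -0.29 against 0.008 over all genes. Cd40 went from 144 and 148 CPM in DMSO + LPS to 121 and 97.7 CPM at 10 µM and 75.6 and 69 CPM at 32 µM (log2 -1.01 ± 0.0948, adjusted p = 3.41e-04). Tnfrsf8 went from 16.9 and 17.1 CPM to 11 and 11.1 CPM at 10 µM and 7.99 and 7.48 CPM at 32 µM (log2 -1.13 ± 0.068, adjusted p = 3.21e-05). The means of both receptors were lower at 32 than at 10 µM, and both remained far above their DMSO levels. Ltb, a ligand of the lymphotoxin β receptor, fell by 0.69 (adjusted p = 0.0117), and Tnfrsf14 (HVEM) fell by 1.06 (adjusted p = 0.0186) on counts of 29 to 123. The call of Ltb was lost without the second DMSO + LPS library (adjusted p = 0.0943) or the first 32 µM library (0.0737), and that of Tnfrsf14 without any 1 of the 4 libraries compared (0.0703 to 0.127).

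At 10 µM Tnfrsf8 was the 1 gene of the 21 that was called, where 0.861% of all genes were, with a fall by 0.62 (adjusted p = 0.00364), and this call was lost without the second DMSO + LPS library (adjusted p = 0.0507). At 3.2 µM 0 of the 21 were called by the same test, and 4 had an unadjusted p below 0.05, where 4.23% of all genes did. Between 32 and 10 µM Cd40 was called at 1.51-fold, at the cutoff (log2 -0.60 ± 0.0944, adjusted p = 0.0152). This call was lost without the first 10 µM library, the one with epithelial marker counts (log2 -0.43), and without the first or the second 32 µM library (adjusted p = 0.0521 and 0.123). Among the 16 genes with too few counts, Tnfrsf11b, which encodes the decoy receptor for RANK ligand, and Tnfrsf21 had 10 and 21 counts in the 10 µM library with epithelial and fibroblast marker counts, and at most 2 and 6 in any other library.

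Of 57 genes that act after the receptors, in release of TNF or in control of its mRNA, 56 were tested. LPS raised 19 and lowered 2 of them, where 14.6% of all genes were called higher and 13.6% lower, with a median of 0.15 against 0.003 over all genes. Of 26 adaptors and ubiquitin enzymes 8 rose and 0 fell, led by Traf1, a TRAF adaptor of TNFR2, from 9.35 to 523 CPM (log2 5.80 ± 0.0734), and Tnfaip3 (A20), a ubiquitin-editing inhibitor of NF-κB, from 7.2 to 112 CPM (log2 3.96 ± 0.0597). Of 11 death and survival genes 5 rose and 0 fell, among them Cflar, the caspase-8 inhibitor, and Mlkl, the executioner of necroptosis.

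Of 7 tested genes for shedding 3 rose and the protease gene Adam10 fell by 1.08, whereas Adam17, which encodes the TNF-converting enzyme, differed by 0.05 ± 0.07 on the log2 scale and was not called. Of 12 genes of mRNA control 3 rose, with Zc3h12a (Regnase-1, an RNase) at log2 3.97 and Zfp36 at log2 3.28, and Zfp36l2, a relative of Zfp36, fell by 1.58. Of the 21 LPS calls, those of Traf2 and Sppl2a, an intramembrane protease gene, depended on single libraries, Traf2 on the second DMSO library (log2 0.56 without it) and Sppl2a on the first DMSO or the first DMSO + LPS library (0.55 and 0.57).

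At 32 µM against DMSO + LPS, 2 of the 56 fell and 1 rose, shares near the 2.91% of all genes called lower and the 1.27% called higher, so the count is no result about this list. The median was -0.02, against 0.008 over all genes. Daxx, which encodes a Fas-binding and chromatin protein, went from 128 and 132 CPM to 69.3 and 69.7 CPM (log2 -0.90 ± 0.0477, adjusted p = 1.59e-05). Tnfaip3 went from 115 and 110 CPM to 72.9 and 76.3 CPM (log2 -0.59 ± 0.0518, adjusted p = 2.39e-04), which lies at the fold cutoff. Zfp36l2, which LPS had lowered, went from 64.8 and 68.5 CPM to 95.7 and 112 CPM (log2 0.64 ± 0.101, adjusted p = 0.00529). Adam17 was at 0.01 ± 0.07 and Zfp36 at -0.44 ± 0.0528 on the log2 scale (adjusted p = 0.00128), and neither was called.

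The calls of Tnfaip3 and Zfp36l2 at 32 µM lay close to the fold cutoff. That of Zfp36l2 was lost without the first DMSO + LPS library (adjusted p = 0.0645) or the second 32 µM library (log2 0.52), and that of Tnfaip3 without the first DMSO + LPS or the first 32 µM library (log2 -0.56 in each case), so that without the first DMSO + LPS library Daxx was the 1 gene of the 56 still called. At 10 and 3.2 µM edgeR's quasi-likelihood test and DESeq2 called 0 of the 56, with 14 and 4 genes at an unadjusted p below 0.05, where 12.1% and 4.23% of all genes were.

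**Figure D4:**
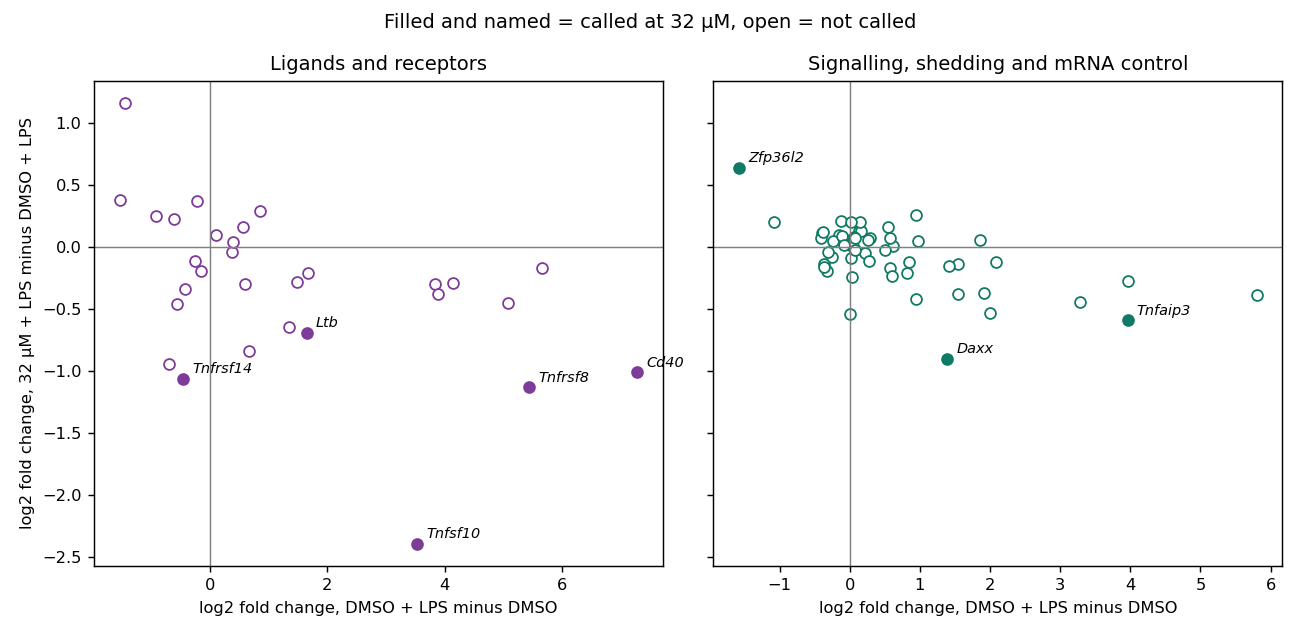
Log2 fold change at 32 µM with LPS against DMSO + LPS, plotted over the log2 fold change of LPS against DMSO, for the tested ligands and receptors (left, the 9 genes and the other 21) and the 56 signalling, shedding and mRNA control genes (right). Filled and named points were called at 32 µM, and both axes share the DMSO + LPS libraries, so no relation between them is read from the plot.

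Genes with the pattern most like each member were sought among 2138 genes with a mean of at least 5 CPM and a range of at least 1 in log2 CPM over the 10 libraries. The libraries with and without LPS form separate groups, so Pearson's r over the 8 LPS libraries is given after that over all 10, as a description in which all points share doses and depth. Tnfsf10 was most like Slc28a2 (r = 0.993 over 10, 0.99 over 8) and Lgals9, which encodes galectin-9 (0.989 and 0.98). Tnfrsf1b was most like Csf3, the gene of the granulocyte growth factor G-CSF (1.000 and 0.98), and Traf1 (0.999 and 0.97). Fas was most like Pdpn (0.999 and 0.96) and Brd2 (0.999 and 0.97). Tnf was most like Socs3, a feedback inhibitor of cytokine signalling (1.000 and 0.93), and Gm16685 (1.000 and 0.79).

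Among the other members, Tnfsf9 was most like Cdk5r1 (0.991 and 0.90) and the AP-1 gene Jun (0.991 and 0.89), and Tnfsf13b was most like Rgs2 (0.959 and 0.90) and Lmo2 (0.953 and 0.86). Tnfrsf1a was most like Bst1 (0.996 and 0.96) and Mvp (0.995 and 0.90). Tnfrsf10b was most like Sema4b (0.995 and 0.94) and Ptpn12 (0.994 and 0.93). Tnfrsf11a was most like Ccnd1, the cyclin D1 gene (0.963 and 0.96), and St3gal6 (0.946 and 0.91).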

How the data were processed

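RNA from 10 RAW264.7 libraries was sequenced as stranded poly(A) libraries with 2 × 150 cycles on 1 lane. The authors deposited raw read counts per Ensembl gene. The submitters' processing notes name Trimmomatic, FastQC, STAR, DESeq2 and mm10. The counting tool, annotation and use of strand are not given in the sources used here, so reads from overlapping antisense genes cannot be told apart.

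From the counts, edgeR 4.0.16 (R 4.3.3) fitted all 10 libraries with 1 mean per condition and 5 residual degrees of freedom, after a filter at a minimum count of 10 and TMM scaling, and tested 6 comparisons by the quasi-likelihood test with Benjamini-Hochberg adjustment. An exact permutation test of 2 against 2 libraries could not go below p = 0.333 and was not used. The script was tested on simulated data. At 1 CPM the counting error was 14.9% in the smallest library. Gene coordinates are from GENCODE M21 (GRCm38), promoters from RefSeq (GRCm38.p6).

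The members, gene lists and tests were chosen with earlier results of these data known. From the lists, up to 4 called genes per direction with the largest changes, a mean of at least 1 CPM and no overlap between libraries were named, and for likeness the 2 genes of highest r per member. Further called genes, Adam17, Fasl, Tnfsf11 and genes tied to a library's markers were named after their values were seen. DESeq2 1.42.0 was an alternative.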

Additional observations from a re-analysis of the deposited data

How the results depend on the processing

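The 5 LPS calls and the 32 µM call of Tnfsf10 among the members held under every alternative that could test the gene, except that Tnfrsf10b, at 1.81-fold, misses a 2-fold cutoff, which leaves 4 LPS calls. A mean of at least 5 CPM removes Tnfsf10 and left 0 members called at 32 µM. Without a fold cutoff the members called were 9 for LPS, 5 at 32 µM and 1 for 32 against 10 µM. The edgeR likelihood ratio test called 1 member at 10 µM. A term for the level of 1422 transcripts under 1000 bases, whose score ran from -0.357 to 0.260 over the libraries, gave 1 member at 10 µM and 1 for 32 against 10 µM (Tnfsf10, adjusted p = 0.0106 and 0.0487). For the other ligands and receptors, LPS gave 7 under the 5 CPM filter and 7 to 9 with single libraries left out, 32 µM gave 7 without a fold cutoff and 2 to 3 with libraries left out, and 10 µM gave 0 at 2-fold or in the fit of 4 libraries, 2 by the likelihood ratio test or with the short-transcript term, and 0 to 1 with libraries left out. For the signalling genes, LPS gave 36 without a fold cutoff, 32 µM gave 10 without it, 0 at 2-fold and 1 to 3 with libraries left out, and 10 µM gave 2 without a fold cutoff. A lone remaining library was assumed to vary like the other conditions.

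Scaling by library totals alone moved the median of all genes by -0.204 for LPS and -0.200 for 32 µM against DMSO, and the LPS calls over all genes from 2072 higher and 1923 lower to 1582 and 2938. For 32 µM against DMSO the calls moved from 1964 and 1883 to 1490 and 2798. Tnfsf13b was then called under LPS (log2 -0.63), Tnfsf9 was no longer called for 32 µM against DMSO (0.53), and Tnfaip3 at 32 µM was not called (-0.58). Over all genes the calls were 3995 for LPS (7220 without a fold cutoff, 2426 at 2-fold, 2641 at a mean of at least 5 CPM), 592 at 32 µM (1386 and 317 with the 2 other cutoffs), 122 at 10 µM (378 and 36, 232 with the short-transcript term, 41 in the fit of 4 libraries, 52 to 227 with libraries left out), 0 at 3.2 µM (1 without the count filter, 8 by DESeq2, 3 by the likelihood ratio test, 6 with the short-transcript term, 66 in the fit of 4 libraries, up to 1 with libraries left out), 187 for 32 against 10 µM (391, 63, 295 and 5 under those cutoffs, that term and that fit) and 3847 for 32 µM against DMSO (7208, 2245 and, at a mean of at least 5 CPM, 2545).

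Signs turned only for uncalled differences near 0. At 10 µM, Tnfrsf1a was 0.01 under library totals and -0.07 to 0.04 with libraries left out, and Tnfrsf11a was 0.01 under library totals, 0.00 with the short-transcript term and -0.06 to 0.03. At 3.2 µM, Fas was -0.00 under DESeq2, its size factors or the 5 CPM filter, -0.01 under library totals or no count filter and -0.03 to 0.04, Tnfrsf10b was 0.00 with the short-transcript term and -0.06 to 0.01, Tnfsf9 was -0.02 to 0.15 and Tnfsf10 was -0.15 to 0.23. For 32 against 10 µM, Tnfsf9 was -0.07 to 0.04 and Tnfrsf1a was -0.02 to 0.10. Relt under LPS was not called in the fit of 4 libraries (-0.58).

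The replicate numbers were not treated as pairs, since the labels give no shared batch. Deviations of same-numbered libraries correlated at -0.17 to 0.57. The correlations were 0.42 to 0.57 for DMSO with 10 and 32 µM and for 10 µM with 3.2 and 32 µM. Those of DMSO + LPS with the other conditions were -0.17 to -0.07. Whether same-numbered libraries share a batch was not tested. With a replicate block the members called were 5 for LPS, 1 at 32 µM, 0 at 10 µM, 0 at 3.2 µM, 0 for 32 against 10 µM and 7 for 32 µM against DMSO, the same counts as without it.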
